A study of Mus musculus with 12 samples.

Results

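Cathepsins and their lysosomal partners were followed as a set of 10 genes: the cysteine protease genes Ctsb, Ctsc, Ctsl, Ctss and Ctsz, the aspartic protease gene Ctsd, the serine carboxypeptidase gene Ctsa, the activator protein gene Psap and the membrane protein genes Lamp1 and Lamp2. The members were set by name, with earlier results of these data known. Each was found by its Ensembl identifier in both deposited tables, 10 of 32285 identifiers in the table of hematopoietic stem cells (HSCs) and 10 of 56980 in that of macrophages, and all 10 passed the filter on low counts in both.

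The lysosome is the acid compartment in which cells break down proteins, lipids and sugars taken up from outside or delivered by autophagy. A proton pump, the V-ATPase, keeps it acid, the cathepsins cut proteins there, and LAMP proteins line its membrane. Macrophages of the fetal liver engulf the nuclei that erythroblasts expel, so lysosomal proteases are among their working enzymes, and the endothelium of the liver sinusoids is also rich in lysosomes.

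RNA was sequenced in bulk from cells of C57BL/6 mouse embryos at E14.5, in 4 groups of 3 libraries. Embryos of every group, controls included, carried floxed Jag1 alleles (Jag1 f/f), and the groups differed by the Vav-Cre transgene, whose promoter drives Cre in blood cells: HSCs without Vav-Cre (VavCre-Jag1 f/f, called wild type in the labels), HSCs with it (VavCre+Jag1 f/f, called mutant), macrophages without it (Jag1ff/VavCre-) and macrophages with it (Jag1ff/VavCre+). HSCs were sorted as DAPI- CD45+ cells without lineage markers that were cKit+, Sca1+, CD48- and CD150+, 2000 cells a library, and macrophages by CD169, 1000 to 3000 cells a library. The labels do not say which libraries came from separate embryos, so p-values measure the spread between these libraries, which may be technical.

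HSC libraries held 51982064 to 77463770 reads, Cre negative macrophage libraries 17230019 to 24658205 and Cre positive macrophage libraries 2602934 to 5366990. Jag1, the targeted gene, measured 21.1 to 52.6 CPM (reads scaled to a common library size, corrected by the TMM method) in Cre negative and 0 to 10.6 CPM in Cre positive macrophages, but 1.16 to 6.87 CPM in Cre negative HSCs and 0 to 19.5 CPM in the HSC libraries labelled Cre positive, so that it did not separate the HSC groups. Defining macrophage genes were present in the CD169+ sort, with Csf1r, the receptor for the macrophage growth factor, at 81.3 to 897 CPM and Adgre1, which encodes F4/80, at 22.3 to 403 CPM. The endothelial gene Stab2 reached 2455 to 5121 CPM in the same libraries. Cre negative replicate 1 of the macrophages stood apart: it had the lowest Adgre1 of the 6 libraries, 1707 CPM of the hepatocyte gene Alb against 77.1 to 232 CPM in the other 5, and 598 CPM of the collagen gene Col1a1 against 3.83 to 75.5 CPM. The members' counts and medians, their order per length, the list counts and the interaction in macrophages are therefore given with and without it. In bulk libraries, fewer cells of a type and less RNA per cell cannot be told apart.

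On GRCm38 the genes lie apart on 8 chromosomes: Ctsa at chromosome 2, 164832873 to 164841032 (plus strand), Ctsz at chromosome 2, 174427493 to 174439039 (minus), Ctss at chromosome 3, 95526786 to 95556403 (plus), Ctsc at chromosome 7, 88278085 to 88310888 (plus), Ctsd at chromosome 7, 142375911 to 142388038 (minus), Lamp1 at chromosome 8, 13159161 to 13175338 (plus), Psap at chromosome 10, 60277627 to 60302597 (plus), Ctsl at chromosome 13, 64359337 to 64370890 (minus), Ctsb at chromosome 14, 63122462 to 63145923 (plus) and Lamp2 at chromosome X, 38401357 to 38456454 (minus). The library kit does not mark strand, and reads where genes overlap cannot be assigned. In GENCODE M21, Ctsd shares 808 of its 2351 exon bases with the same-strand model Gm49369, which has 0 reads in the macrophage table and no row in that of HSCs. Ctsl shares 1742 of 6489 exon bases with the antisense Gm47123, at 0 reads in both tables, and 395 with the same-strand Gm49230. Ctsb shares 774 of 6051 with the antisense gene Fdft1 and Ctsa 495 and 324 of 4715 with the antisense genes Pltp and Neurl2. Lamp1 and Ctsz share 9.31% and 0.694% of exon bases with antisense genes, and exons of Ctsc, Ctss, Psap and Lamp2 overlap no other exon.

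Many lysosomal genes carry palindromic E-boxes near their start, the core of the element read by the transcription factor TFEB and its relatives, although MYC and USF proteins bind the same core. The core CACGTG, its own reverse complement, was searched in promoter windows of 300 bases (250 before and 50 after each RefSeq start on GRCm38.p6). It occurred in 2349 of 32851 windows (7.15%), and among members with a window in 4 of 9 genes: Lamp1, Ctsd, Ctsa and Ctsl. Lamp1 held 4 copies, beginning 61, 45, 28 and 15 bases before its start. Only 8 of the 32851 windows held 4 or more, a share of 0.0244%. Ctsd held copies 245 and 98 bases before its start, Ctsl a copy 236 bases before, and Ctsa, at the second of its starts, copies 12 bases before the start and from base 6 after it. No copy was found in the windows of Ctsz, Ctss, Ctsc, Lamp2 or either start of Psap, which says only that these letters are not there. Stretches upstream of the start are shown for the genes with copies, and for Psap and Ctsz, the members with the smallest p in macrophages, with the core in capitals, 5′ to 3′ on the gene's strand:
Lamp1, chr8:13159071-13159160: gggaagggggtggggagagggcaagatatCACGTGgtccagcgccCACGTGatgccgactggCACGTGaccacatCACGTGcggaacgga
Ctsd, chr7:142387888-142387947: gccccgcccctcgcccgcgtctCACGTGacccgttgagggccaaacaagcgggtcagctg
Ctsa, chr2:164833713-164833772: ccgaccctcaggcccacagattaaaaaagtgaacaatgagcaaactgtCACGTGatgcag
Ctsl, chr13:64370731-64370770: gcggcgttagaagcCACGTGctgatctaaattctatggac
Psap, chr10:60277538-60277627: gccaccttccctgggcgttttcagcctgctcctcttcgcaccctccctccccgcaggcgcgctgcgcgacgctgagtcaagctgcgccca
Ctsz, chr2:174439040-174439129: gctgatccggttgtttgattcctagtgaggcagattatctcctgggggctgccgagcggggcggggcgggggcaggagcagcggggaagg

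In the wider lysosomal lists the core was in 7 of 25 hydrolase genes with a window, 4 of 12 V-ATPase subunit genes, 6 of 16 sorting genes, 4 of 21 other membrane protein genes, 2 of 10 regulators, 1 of 4 other cathepsins and 0 of 7 inhibitors, where 2187 of all 27025 genes with a window (8.09%) held it. Of the cell type markers it was in 0 of 15 macrophage, 0 of 13 endothelial, 0 of 15 hepatoblast, 0 of 11 erythroid, 0 of 11 neutrophil, 0 of 12 HSC, 1 of 8 stellate and 1 of 8 megakaryocyte genes. A match is a property of the sequence and was not tested as a binding site.

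**Figure D1:**
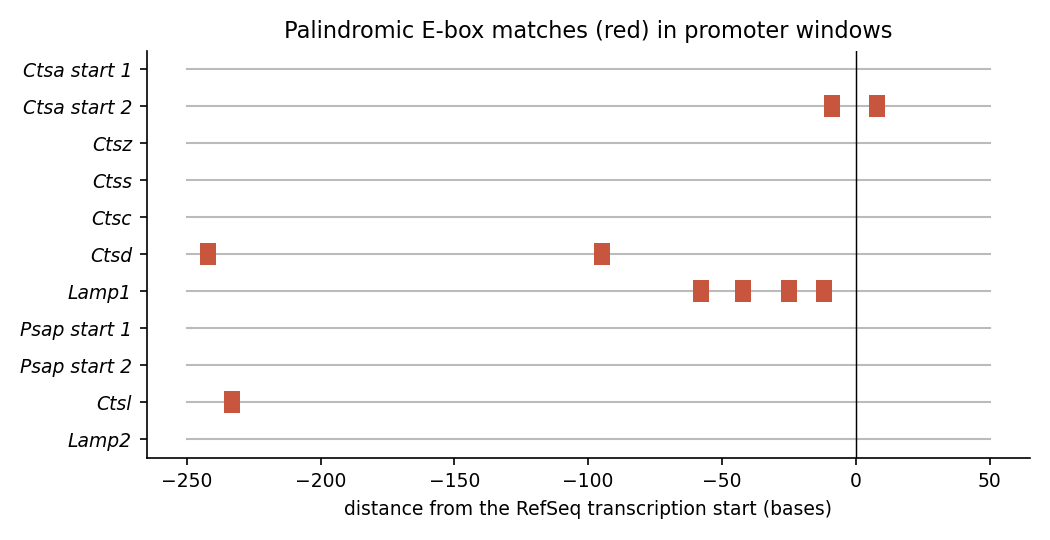
Positions of the E-box core (red blocks, drawn to scale) in the promoter windows of 9 member genes, as distance in bases from the RefSeq start (vertical line). Lamp1 holds 4 copies within 61 bases of its start, Ctsd and the second start of Ctsa hold a pair each, Ctsl holds 1, and the other windows hold none.

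The macrophage comparison asked whether loss of Jag1 from blood cells altered the lysosomal genes of fetal liver macrophages. Of the 10 genes, 9 had the lower mean in Cre positive macrophages and none passed the test. Against all 17806 genes tested, 56.1% of which had a fitted fold change below 0, the members' median log2 fold change was -1.08 and that of all genes -0.16. The differences were not even across the set: Ctsz, Psap and Lamp1 were furthest from 0 relative to their error, and Lamp2 stood at 0.12. The median of all genes moved to -0.00 with upper-quartile scaling and to 0.05 on library totals, and that of the members to -0.93 and -0.83, with 9 members still below 0 in each. With no filter on low counts the median of all genes was -1.14 and that of the members -1.16. That fit took in the genes with too few reads to pass the filter, whereas all 10 members passed it. Its median of all genes is therefore not a background of genes counted as well as the members. The part of low counts in the shallower Cre positive libraries in that median was not tested.

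Among the cysteine cathepsins, Ctss and Ctsc had the widest ranges between libraries of the 10 genes and Ctsl a narrow one. Ctsb, the most widely expressed of these proteases, measured 259, 1873 and 1822 CPM in Cre negative replicates 1, 2 and 3 and 456, 361 and 980 CPM in Cre positive ones. Replicates 2 and 3 of the Cre negative group lay above all others, and replicate 1 lay below all others, so the groups overlapped (log2 fold change -1.14, standard error (SE) 0.72). Ctsc, or dipeptidyl peptidase 1, which activates granule serine proteases, measured 29.7, 361 and 380 CPM against 77, 49.5 and 175 CPM, with a log2 fold change of -1.36 (SE 0.82). Again Cre negative replicate 1 was the lowest of the 6 libraries.

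Ctss, a protease that trims the invariant chain of MHC class II, measured 13.1, 340 and 349 CPM in Cre negative and 95.4, 35.5 and 184 CPM in Cre positive macrophages. It had the widest range of the set, with 26.6 times as much in the highest as in the lowest library, and its log2 fold change of -1.15 had an SE of 1.11. Ctsz, a carboxypeptidase, measured 128, 363 and 376 CPM against 51.5, 124 and 147 CPM. Its groups overlapped by the narrow margin between Cre negative replicate 1 and Cre positive replicate 3, and it had the largest difference of the set, a log2 fold change of -1.43 (SE 0.47; edgeR quasi-likelihood, adjusted p = 0.773). Ctsl, the main lysosomal endopeptidase of many tissues, measured 309, 466 and 452 CPM against 250, 346 and 373 CPM. It was far steadier than the other cysteine cathepsins, with 1.87 times as much in the highest as in the lowest library and a log2 fold change of -0.34 (SE 0.32).

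Ctsd, the aspartic protease of the lysosome, measured 126, 301 and 346 CPM in Cre negative and 93.9, 161 and 225 CPM in Cre positive macrophages (log2 fold change -0.69, SE 0.43). Ctsa, which also shields neuraminidase and beta-galactosidase from breakdown, measured 67.4, 363 and 333 CPM against 39.2, 126 and 269 CPM (log2 fold change -0.81, SE 0.72). In both genes Cre positive replicate 1 was the lowest library, at 261 reads for Ctsd and 109 reads for Ctsa, and Cre positive replicate 3 came next after the pair of high Cre negative libraries.

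Psap encodes prosaposin, which is cut into the saposins that present sphingolipids to their hydrolases. It measured 438, 809 and 818 CPM in Cre negative and 148, 223 and 490 CPM in Cre positive macrophages. A single library, Cre positive replicate 3, exceeded the lowest Cre negative one, and the log2 fold change was -1.26 (SE 0.41, edgeR adjusted p = 0.773). Lamp1 and Lamp2 encode the most abundant proteins of the lysosomal membrane, and their transcripts did not run in parallel. Lamp1 measured 235, 568 and 623 CPM against 161, 231 and 306 CPM (log2 fold change -1.03, SE 0.39, edgeR adjusted p = 0.773). Lamp2, whose splice forms include the receptor of chaperone-mediated autophagy, measured 304, 363 and 397 CPM against 318, 435 and 399 CPM (log2 fold change 0.12, SE 0.31). Its 6 libraries lay within a factor of 1.43, the narrowest range of the set. The ratio of Lamp1 to Lamp2 reads was 0.774, 1.56 and 1.57 in Cre negative and 0.507, 0.531 and 0.766 in Cre positive libraries. This ratio, looked at after the values were seen, separated the groups by a margin of less than 0.01.

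**Figure D2:**
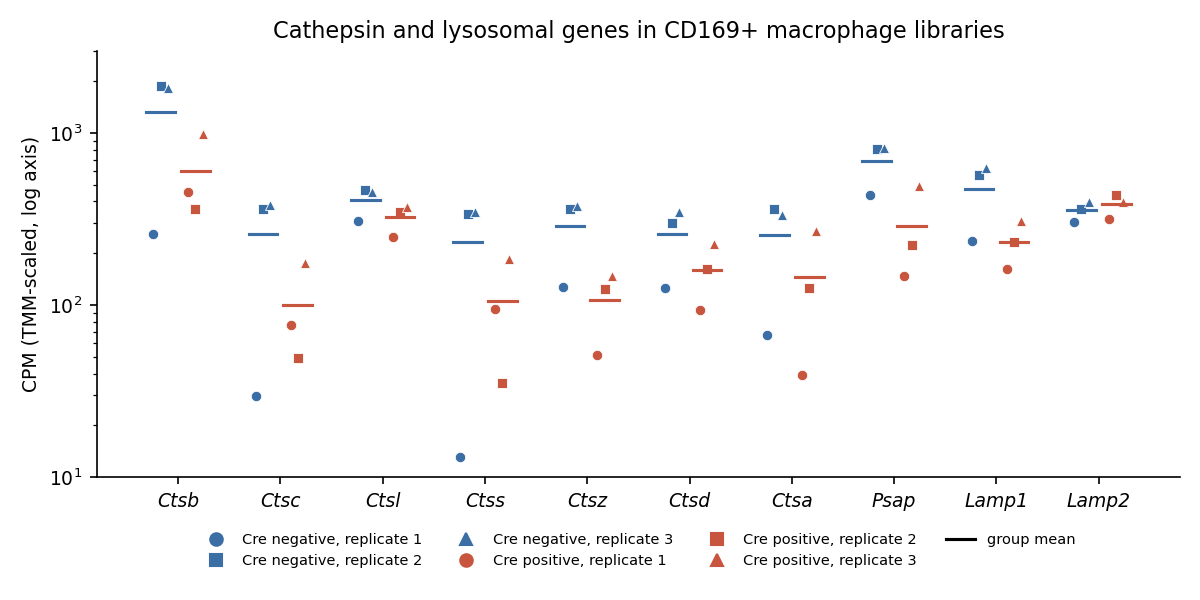
CPM (log axis) of the 10 genes in each of the 6 macrophage libraries, with Cre negative libraries in blue, Cre positive ones in red, replicates by symbol and group means as bars. Cre negative replicate 1 (blue circles) lies among or below the Cre positive libraries, and Lamp2 lies between 304 and 435 CPM in all of them.

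After Benjamini-Hochberg adjustment, the quasi-likelihood test of edgeR called 0 of 17806 genes (0%) and so 0 of the 10 members. At an unadjusted p under 0.05 stood 3 of the 10, each lower, namely Psap, Ctsz and Lamp1. Of all genes tested, 4.91% were lower at that level. DESeq2 also called 0 members and placed 2 of 10, Ctsz and Psap, lower at an unadjusted p under 0.05, against 4.08% of genes. In 0 of the 10 genes did the Cre positive libraries all lie below the Cre negative ones, where 11.8% of all genes did so.

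These counts depended on Cre negative replicate 1. Without it, 9 of the 10 members, Lamp2 being the exception, had every Cre positive library below both remaining Cre negative ones, against 20.5% of all genes. At an unadjusted p under 0.05 then stood 7 of 10 (Ctsb, Ctsc, Ctsd, Ctss, Ctsz, Psap and Lamp1), against 6.15% of genes lower at that level, and the median log2 fold change of the members was -1.43. None passed the adjusted threshold in that fit, in which the smallest adjusted p among members was 0.277 (edgeR, Ctsb). Leaving out Cre positive replicate 3 moved the median to -1.71, and Psap then passed (log2 fold change -1.95, edgeR adjusted p = 0.00189). Over the 6 fits that leave out a library each, the adjusted p of Psap ranged from 0.00189 to 1.

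The high and low libraries for the members were also the high and low ones for macrophage markers. In order of replicate, the 10 genes together took 0.191%, 0.506% and 0.519% of reads in Cre negative and 0.180%, 0.215% and 0.380% in Cre positive macrophages. A list of 20 macrophage markers that names no lysosomal protein took 0.271%, 0.632% and 0.560%, and 0.305%, 0.318% and 0.467%. A list of 20 endothelial markers ran the other way, at 2.06%, 1.02% and 1.03%, and 1.71%, 2.14% and 1.65%, so the libraries low in the members were high in endothelial transcripts. Of the macrophage markers 18 of 20 had the lower mean in Cre positive libraries (median log2 fold change -1.07), and of the endothelial markers 16 of 20 the higher (median 0.24). Without Cre negative replicate 1 these medians were -1.58 and 0.52, and 18 of 20 macrophage and 2 of 20 endothelial markers had the lower mean. No marker of either list was at 0 in all 6 libraries. Marco was at 0 in Cre negative replicate 1, Vsig4 in Cre positive replicates 1 and 3 and Clec4f in Cre positive replicate 3.

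Taken per unit of macrophage marker, the members overlapped between genotypes, as they did before this division. Their summed CPM was 0.705, 0.801 and 0.926 times that of the 20 macrophage markers in Cre negative libraries and 0.591, 0.676 and 0.813 times in Cre positive ones. The lowest and the highest Cre positive ratio lay below the lowest and the highest Cre negative one. Markers of other cell types went both ways. Neutrophil markers had the higher mean in 5 of 7 tested (median log2 fold change 0.84). Without Cre negative replicate 1, 4 of 9 tested had the lower mean (median 0.28). HSC markers had the higher mean in 7 of 13 tested (median 0.32). Without that library 3 of 13 had the lower mean (median 0.29). Megakaryocyte markers had the lower mean in 5 of 5 tested (median -0.62), and in 4 of 6 without that library (median -0.90). Stellate cell markers had the lower mean in 12 of 12 (median log2 fold change -2.66), and again in 12 without Cre negative replicate 1 (median -1.54). They took 0.180%, 0.0261% and 0.0353% of reads in Cre negative against 0.0194%, 0.0150% and 0.0114% in Cre positive libraries, without overlap. Erythroid markers had the lower mean in 9 of 13 tested (median -1.34), and in 10 of 13 without Cre negative replicate 1 (median -1.80). Hepatoblast markers had the lower mean in 13 of 17 (median -1.45), but in 5 of 16 without that library (median 0.84). They took 0.478% of its reads and 0.0499% to 0.0940% in the other 5. Depth moved with genotype too, and after thinning every library to the depth of the smallest the members' median was -0.93. The part of cell composition in the differences of the members was not tested.

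**Figure D3:**
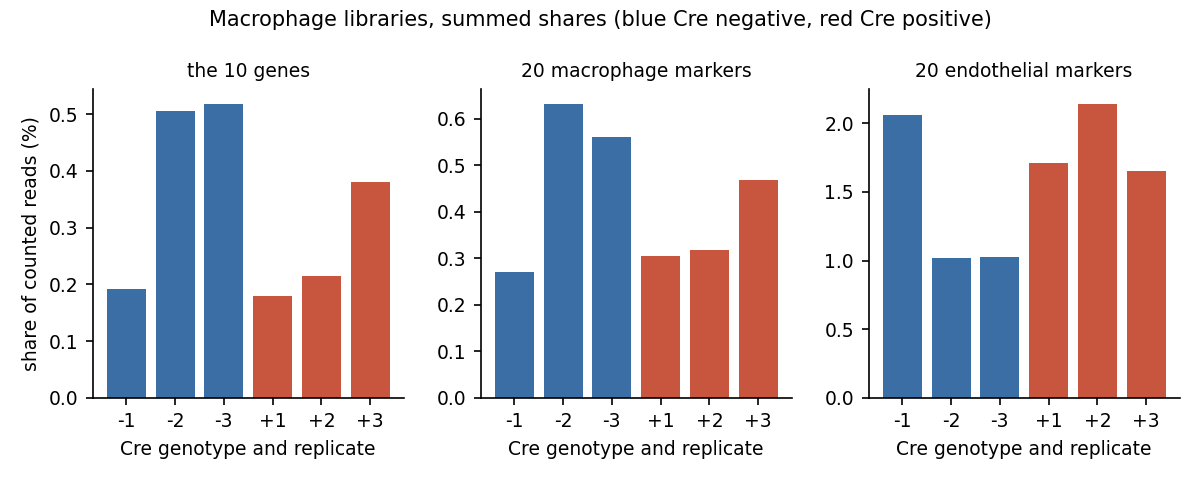
Share of counted reads (%, axes from 0) taken by the 10 genes, by 20 macrophage markers and by 20 endothelial markers in each macrophage library (- for Cre negative in blue, + for Cre positive in red, with the replicate number). Libraries -2 and -3 are highest for the 10 genes and for macrophage markers and lowest for endothelial markers.

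Compared per length of merged exons, Psap had the highest mean in both macrophage groups, at 251 ± 79.2 CPM per kb in Cre negative and 105 ± 65.5 CPM per kb in Cre positive libraries (SD, n = 3 each). Ctsb followed at 218 ± 152 and 99 ± 55.1 CPM per kb. In the Cre negative group that order rested on replicate 1: Ctsb measured 42.8, 309.6 and 301 CPM per kb in replicates 1, 2 and 3 and Psap 159.5, 295 and 298, so that Ctsb was above Psap in replicates 2 and 3. At the other end stood Lamp2, at 37.1 ± 4.93 CPM per kb in Cre negative libraries, and Ctsc, at 17.3 ± 11.3 CPM per kb in Cre positive ones. With all 3 libraries kept, all neighbours in this order overlapped in range in each group. In Cre negative replicates 2 and 3 alike the order was Ctsb, Psap, Ctsz, Ctss, Lamp1, Ctsd, Ctsa, Ctsl, Ctsc and Lamp2. Over these libraries only Ctsz with Ctss and Ctsa with Ctsl overlapped in range. Ctss, a protease of professional antigen-presenting cells, had means of 172 ± 141 and 77.4 ± 55.2 CPM per kb. Its place differed between libraries, with 9.68 CPM per kb in Cre negative replicate 1 and 26.2 CPM per kb in Cre positive replicate 2.

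Other genes of the pathway had lower means in Cre positive macrophages in most lists, with 0 genes past the adjusted threshold when all libraries were kept. Of 32 lysosomal hydrolases 25 had the lower mean (median log2 fold change -0.57, against -0.16 for all genes), and again 25 without Cre negative replicate 1 (median -0.82), when the median of all genes was -0.16. With all libraries 3 hydrolases were lower and 0 higher at an unadjusted p under 0.05, against 4.91% and 0.511% of all genes. Hexa, the alpha subunit of beta-hexosaminidase, measured 112, 217 and 268 CPM in Cre negative and 54.0, 70.3 and 136 CPM in Cre positive libraries. Dnase2a, the lysosomal nuclease with which macrophages digest the DNA of expelled erythroblast nuclei, measured 4.52, 76.8 and 53.1 CPM against 0, 2.60 and 0 CPM. Its Cre positive libraries all lay below the Cre negative ones (edgeR adjusted p = 0.773), and it passed with DESeq2 (adjusted p = 0.0451). Dnase2a passed the filter on low counts because of its Cre negative libraries. Its lower mean, its lack of overlap and its part in the counts of this list were thus not independent of the filter. On the lower side 2 of 32 hydrolases did not overlap, against 11.8% of all genes. A count of 3 reads equals 1.08, 0.558 and 0.522 CPM in the Cre positive libraries, so lower levels were not detectable there.

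Of the V-ATPase subunits, 15 of 17 tested had the lower mean (median -0.45). Without Cre negative replicate 1, 17 of 18 tested did (median -0.86). Among the lower ones were Tcirg1, at 97.4, 121 and 106 CPM against 33.1, 79.2 and 32.2 CPM, and Atp6v0e, at 41.1, 64.0 and 54.6 CPM against 21.2, 4.28 and 17.2 CPM. Neither gene overlapped between groups (edgeR adjusted p = 0.864 and 0.876). On the lower side 2 of the 17 subunits did not overlap, against 11.8% of all genes. Of the other lysosomal membrane proteins 17 of 25 tested had the lower mean (median -0.47; 19 and -0.74 without that library). The tetraspanin gene Cd63 measured 112, 134 and 178 CPM against 59.7, 10.2 and 82.1 CPM without overlap, and Slc15a3, a peptide transporter, 20.4, 108 and 71.5 CPM against 34.5, 13.6 and 6.79 CPM. Of these 25 genes 2 did not overlap on the lower side. The edgeR adjusted p of Cd63 was 0.773.

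Among genes that tag and sort lysosomal proteins 15 of 20 had the lower mean (median -0.41), and without Cre negative replicate 1 16 did (median -0.62). Ap1g1, a subunit of the adaptor that packs mannose-6-phosphate receptors into vesicles, measured 103, 97.6 and 84.9 CPM against 44.6, 34.8 and 27.7 CPM. Here Cre negative replicate 1 lay with its group. Ap3d1, of the adaptor AP-3, measured 263, 344 and 396 CPM against 91.8, 288 and 246 CPM, with overlap. Of the regulators 7 of 11 had the lower mean and the median of -0.16 equalled that of all genes, against 8 and -0.25 without that library. Tfec, a TFEB relative of macrophages, measured 60.3, 79.7 and 61.4 CPM against 19.1, 29.7 and 18.4 CPM without overlap, while the GTPase gene Rragc overlapped, at 51.7, 78.8 and 124 CPM against 63.7, 29.0 and 60.4 CPM. The edgeR adjusted p was 0.773 for Ap1g1 and 0.778 for Tfec. On the lower side 1 of 20 sorting genes and 1 of 11 regulators did not overlap, against 11.8% of all genes.

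The other cathepsins were scarce in macrophages: 4 of 7 had the lower mean (median -0.27). Without Cre negative replicate 1, 4 of the 6 then tested had it (median -0.90). Ctsh, an aminopeptidase, measured 6.37, 108 and 66.6 CPM against 5.40, 11 and 18.8 CPM, and Ctsf 8.28, 37.3 and 18.4 CPM against 9, 0.558 and 29.6 CPM, both with overlap. Of 10 inhibitor genes 5 were dense enough to test, each with the lower mean (median -1.84), and again 5 of 5 without that library (median -2.12). Serpinb6a, an inhibitor of cathepsin G, measured 132, 439 and 374 CPM against 68.7, 140 and 262 CPM with overlap, and Serpinb1a, an inhibitor of neutrophil proteases, 0.985, 6.35 and 14.8 CPM against 0, 0.186 and 0 CPM, near the floor of 3 reads. Serpinb1a passed the filter on low counts through its Cre negative libraries alone. Its lower mean, and its part in the count and median of this list, were thus not independent of the filter.

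The HSC comparison asked the same of stem cells. Of the 10 members 6 had a lower and 4 a higher mean where the label was Cre positive, and 50.3% of the 13962 genes tested had a fitted fold change below 0. The members' median log2 fold change was -0.23, and that of all genes -0.00. Both LAMP genes were among the lower ones, and the cathepsins were split.

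Lamp1 measured 876, 699 and 584 CPM without Cre and 564, 429 and 451 CPM with the Cre positive label. The groups did not overlap, and the log2 fold change was -0.58 (SE 0.21, edgeR adjusted p = 0.746). Lamp2 measured 567, 408 and 315 CPM against 309, 334 and 172 CPM (log2 fold change -0.66, SE 0.32, edgeR adjusted p = 0.807) and overlapped between Cre negative replicate 3 and Cre positive replicate 2. Ctsb, at 1250, 1140 and 1121 CPM against 1075, 796 and 1058 CPM, was the other member without overlap (log2 fold change -0.26, SE 0.18).

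Ctsl, with 1346, 839 and 575 CPM against 594, 655 and 688 CPM, had its highest and its lowest library within the Cre negative group, and its log2 fold change of -0.51 had an SE of 0.30. Ctsd measured 1595, 1026 and 1178 CPM against 1311, 932 and 852 CPM (-0.30, SE 0.24 on the log2 scale). Psap measured 744, 468 and 559 CPM against 409, 489 and 644 CPM (-0.20, SE 0.25). In these genes Cre negative replicate 1 was the highest library.

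The members with the higher mean were Ctsc, Ctss, Ctsz and Ctsa, and each overlapped. Ctsc measured 271, 215 and 250 CPM without Cre and 431, 303 and 227 CPM with the Cre positive label (log2 fold change 0.38, SE 0.26). Ctss measured 68.3, 63.7 and 59.4 CPM against 80.7, 25.2 and 172 CPM: the Cre negative libraries lay close together, and the others lay on both sides of them (0.54, SE 0.59). Ctsz measured 376, 261 and 248 CPM against 287, 213 and 441 CPM (0.09, SE 0.30), and Ctsa, the steadiest member, 468, 397 and 353 CPM against 445, 424 and 401 CPM (0.06, SE 0.18). Without Cre positive replicate 3, the log2 fold change of Ctss was -0.27 and that of Ctsz -0.24.

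**Figure D4:**
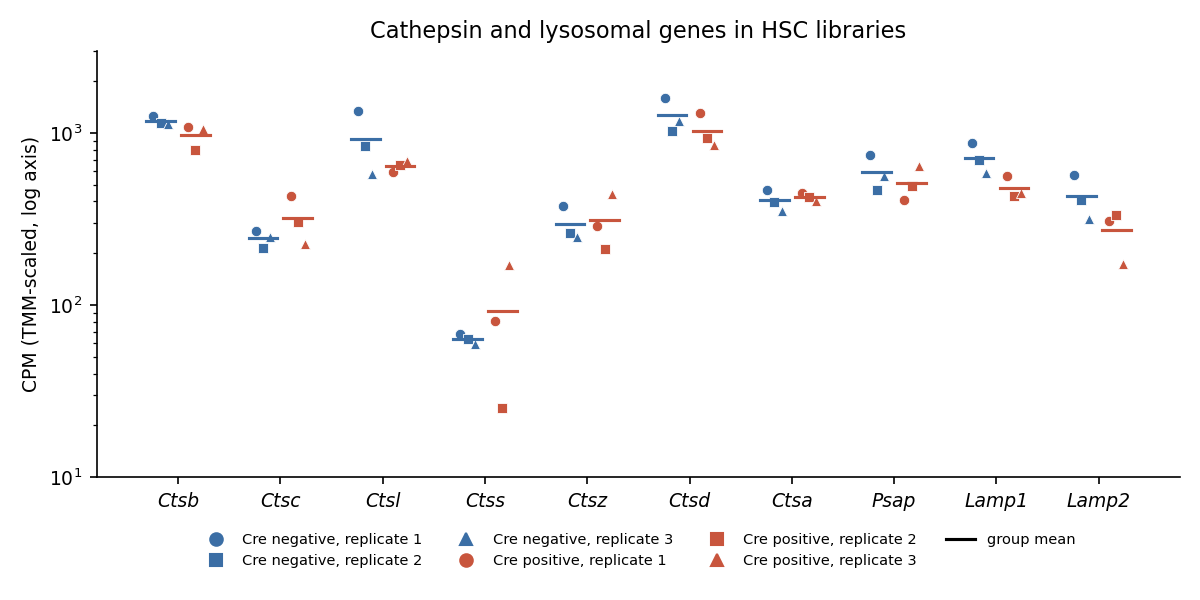
CPM (log axis) of the 10 genes in each of the 6 HSC libraries, with Cre negative libraries in blue, those labelled Cre positive in red, replicates by symbol and group means as bars. Lamp1 and Ctsb do not overlap between the groups, and Ctss spans 25.2 to 172 CPM within the libraries labelled Cre positive.

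No member passed in HSCs, where edgeR called 0 of 13962 genes (0%) after adjustment. Lamp1 alone stood at an unadjusted p under 0.05, 1 of 10 members, against 3.97% of all genes that were lower at that level. DESeq2 called 0 members and placed 2 of 10, Lamp1 and Lamp2, lower at an unadjusted p under 0.05, against 4.69% of genes. Groups did not overlap on the lower side in 2 of 10 members and in 9.33% of all genes. Without Cre negative replicate 3, the members lower at an unadjusted p under 0.05 numbered 3 (Lamp1, Lamp2 and Ctsl), against 4.65% of genes. They numbered 0 when the first or second Cre negative library was left out (2.18% and 3.03% of genes), and also without Cre positive replicate 2 or 3 (4.45% and 4.84%). Without Cre negative replicate 1 the median of the members was -0.05.

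Cre negative replicate 1 was the highest HSC library for 7 of the 10 members, and it also held the most endothelial transcript. Endothelial markers took 1.97%, 1.39% and 1.02% of reads without Cre and 1.08%, 0.981% and 1.32% with the Cre positive label. The members together took 0.696%, 0.553% and 0.536%, and 0.566%, 0.471% and 0.508%. Macrophage markers without lysosomal genes took 0.237%, 0.216% and 0.212%, and 0.270%, 0.142% and 0.316%, lowest and highest in the libraries lowest and highest for Ctss. The part of these cells in the HSC values was not tested.

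Per length, Ctsd led the set in HSC libraries, at 539 ± 125 CPM per kb in Cre negative and 439 ± 104 CPM per kb in those labelled Cre positive (SD, n = 3 each), above the range of the next gene in both groups. Lamp1, Psap, Ctsz and Ctsb followed in Cre negative libraries at 269 ± 55.1, 215 ± 51.2, 205 ± 48.8 and 193 ± 11.6 CPM per kb, with overlapping neighbours. Ctss, Lamp2 and Ctsc closed the order at 47 ± 3.3, 45 ± 13.4 and 42.2 ± 4.9 CPM per kb. In macrophages Ctsd stood at 109.6 ± 49.5 and 68.1 ± 27.9 CPM per kb, behind Psap, Ctsb, Ctsz, Lamp1 and Ctss in each group. The tables differ in the gene models they list, Gm49369 over Ctsd included, and the part of this in the order was not tested.

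In the wider pathway, 22 of 32 hydrolases (median -0.25), 12 of 17 V-ATPase subunits (-0.07), 14 of 25 other membrane proteins (-0.13), 12 of 20 sorting genes (-0.12) and 6 of 11 regulators (-0.17) had the lower mean in HSC libraries labelled Cre positive, with 0 genes past the adjusted threshold. Mcoln1, the calcium channel of the lysosome, measured 136, 110 and 165 CPM against 77.4, 63.4 and 95.4 CPM without overlap (edgeR adjusted p = 0.689). Slc38a9, the arginine sensor that reports to mTORC1, went the other way without overlap, at 31.8, 24.9 and 28.6 CPM against 39.4, 94.9 and 39.5 CPM (edgeR adjusted p = 0.781). Of the 25 other membrane proteins 2 did not overlap on the lower and 1 on the higher side, against 9.33% and 6.37% of all genes. In macrophages Slc38a9 also had its Cre positive libraries above the Cre negative ones, at 23.7, 25.6 and 21.3 CPM against 47.9, 49.5 and 51.5 CPM. There 1 of 25 other membrane proteins did so, against 2.27% of all genes.

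Of the hydrolases, Naglu measured 97.3, 68.6 and 54.7 CPM against 47.3, 44.8 and 30.2 CPM, and the phospholipase gene Pla2g15 46.6, 50.5 and 57.8 CPM against 26.6, 18.6 and 36.1 CPM, both without overlap. The adaptor gene Gga2 measured 144, 175 and 188 CPM against 125, 111 and 83.6 CPM and Flcn, a regulator of TFEB and TFE3, 143, 121 and 169 CPM against 93.5, 96.4 and 104 CPM. The retromer gene Vps26a (144, 129 and 139 CPM against 125, 90.6 and 43.0 CPM), the GTPase gene Rragc (173, 120 and 120 CPM against 77.7, 99.8 and 12.4 CPM) and the V-ATPase accessory gene Atp6ap2 (113, 118 and 139 CPM against 72.8, 57.5 and 105 CPM) did not overlap either. Atp6v1f (113, 134 and 96.1 CPM against 116, 200 and 195 CPM), Ctso (149, 99.2 and 152 CPM against 59.1, 132 and 59.3 CPM) and Ctsf (54.3, 57.3 and 79.2 CPM against 35.8, 77 and 55.3 CPM) overlapped. Genes were named here by the smallest p of their list, which favours groups that lie apart. Where groups did not overlap, the edgeR adjusted p ran from 0.736 (Gga2) to 0.867 (Rragc). On the lower side 5 of 32 hydrolases, 3 of 20 sorting genes, 2 of 17 V-ATPase subunits and 2 of 11 regulators did not overlap, against 9.33% of all genes.

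The cathepsin inhibitors leaned to the other side in HSCs, with 6 of 7 tested having the higher mean (median 0.66). Stfa1, a stefin of neutrophil precursors, measured 81.8, 145 and 83.3 CPM against 105, 399 and 134 CPM, and Stfa3, of the same near-identical gene family, 7.61, 11.6 and 6.08 CPM against 17.2, 32.2 and 11.6 CPM. The groups overlapped for Stfa1 and were apart by a narrow margin for Stfa3. On the higher side 2 of 7 inhibitors did not overlap, against 6.37% of all genes. The stefins are close copies whose reads counting may split, so their values are uncertain. Both were highest in Cre positive replicate 2, where neutrophil markers took 0.401% of reads against 0.0925% to 0.234% in the other 5 libraries. The part of neutrophil precursors in these values was not tested.

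**Figure D5:**
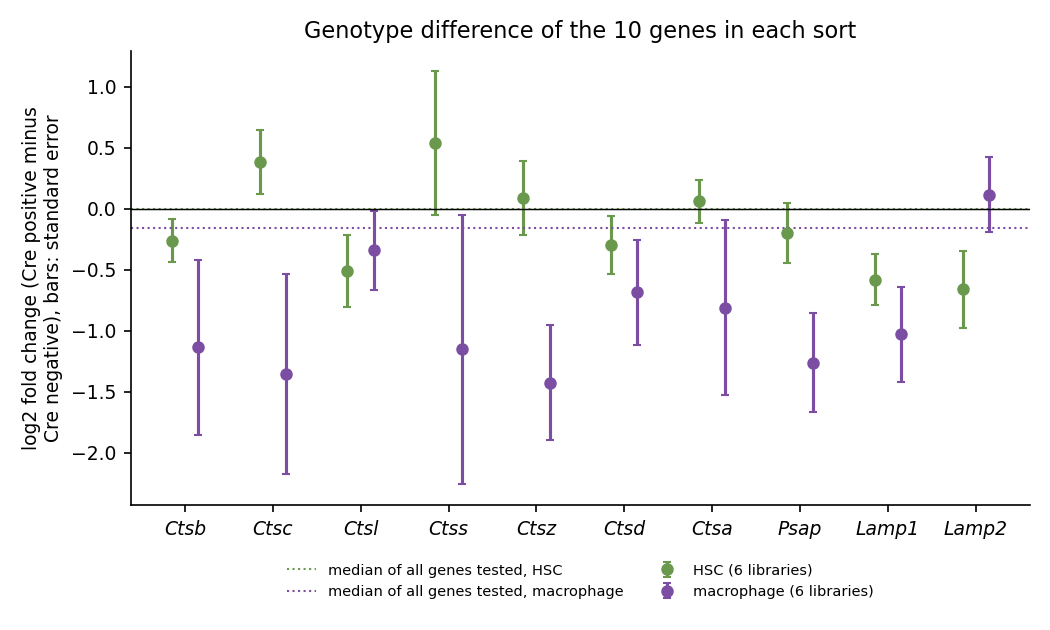
Log2 fold change (Cre positive minus Cre negative) with its SE for the 10 genes in HSCs (green) and macrophages (purple), beside 0 and the median of all genes tested in each sort (dotted). Macrophage values reach -1.43 for Ctsz, HSC values lie between -0.66 and 0.54, and Lamp2 alone has a value above 0 in macrophages and below 0 in HSCs.

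Whether genotype acted differently in the sorts was tested as an interaction over the 32210 shared identifiers. Of 20128 genes tested 14 were called (0.0696%), and 0 of the 10 members. The largest differences (macrophage minus HSC, log2) among members were -1.72 for Ctsc (SE 0.95), -1.67 for Ctss (SE 1.34), -1.51 for Ctsz (SE 0.59, edgeR adjusted p = 0.528) and -1.07 for Psap (SE 0.51, edgeR adjusted p = 0.580). Lamp2 had the opposite sign, at 0.77 (SE 0.44, edgeR adjusted p = 0.679). Without macrophage Cre negative replicate 1 the test called 23 genes and again 0 members, with -2.23 for Ctsc (SE 0.58, edgeR adjusted p = 0.231), -2.21 for Ctss (SE 0.85), -1.83 for Ctsz (SE 0.56), -1.26 for Psap (SE 0.52) and 0.72 for Lamp2 (SE 0.46). Sort and preparation batch coincide, so a difference between sorts cannot be told apart from one between batches.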

How the data were processed

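The authors deposited raw counts of reads per gene, not normalized, in 1 table per sort. The submitters' processing notes name STAR 2.7.6a as aligner and featureCounts (Subread 2.0.1) as counter for HSCs, on GRCm38 (mm10). For macrophages they name mm10, and the aligner is not given in the sources used here, nor are counting settings and annotation release. Per the labels' protocols, RNA was amplified with SMART-Seq v4, for macrophages from 1 ng in 11 cycles. Names and coordinates come from GENCODE M21.

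Each table was fitted on its own with edgeR 4.0.16 (R 4.3.3): filterByExpr, TMM, robust quasi-likelihood test of Cre positive minus Cre negative, Benjamini-Hochberg threshold 0.05. SEs were derived from the fold change and F statistic. DESeq2 1.42.0 was an alternative, as were other scalings, no filter, thinning, a replicate block and leaving out each library. Fits were checked on simulated counts. Promoters come from RefSeq (GRCm38.p6), with windows for 9 of the 10 members. A count of 3 reads equals 0.0386 to 1.08 CPM, for counting error only. Libraries of a group differed beyond sampling noise (chi-square per degree of freedom 56.9 to 844).

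Members and lists were chosen with earlier results of these data known. Named genes are the members, Jag1 and up to 2 genes per pathway list and sort, those with the smallest p whose larger group mean reached 5 CPM. Slc38a9 in macrophages, the Lamp1 to Lamp2 ratio and the named cell type markers were chosen after their values were seen. The count of members without overlap was recomputed without each library as an alternative added after the data were seen.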

Additional observations from a re-analysis of the deposited data

How the results depend on the processing

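DESeq2 called 129 genes in HSCs, 54 in macrophages and 747 in the interaction, against 0, 0 and 14 with edgeR; no member was among them. It placed 2 HSC members lower at an unadjusted p under 0.05 (4.69% of all genes), where edgeR placed 1 (3.97%). Without a filter on low counts, 0 genes were called in HSCs, 21 in macrophages and 107 in the interaction. Then 2 HSC and 5 macrophage members were lower at that level (edgeR: 1 and 3 with the filter), against 3.7% and 2.3% of all genes. With the interaction, 9 genes were called under upper-quartile scaling and 8 under library totals. The cause of these shifts was not tested.

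With the replicate number as a block, 0 genes were called in HSCs, 13 in macrophages and 96 in the interaction. At an unadjusted p under 0.05, 2 HSC and 5 macrophage members were lower, against 2.97% and 3.39% of all genes. Correlations between the deviations of same-numbered libraries ran from -0.0334 to 0.0268, and those of differently numbered ones from -0.0586 to 0.0428. With 3 noisy libraries a group, these values cannot decide whether the numbers pair the samples. Psap had an edgeR adjusted p of 0.128 with the block. The median of all macrophage genes was then -0.72 and that of the members -0.85.

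Leaving out each library in turn gave 1 to 34 called genes in macrophages and 6 to 210 in the interaction. Members lower at an unadjusted p under 0.05 ranged from 0 to 3 in HSCs and from 2 to 7 in macrophages. Of all genes, 2.18% to 7.49% and 1.9% to 6.15% were lower at that level. Members without overlap on the lower side ranged from 2 to 4 and from 0 to 9, against 12.2% to 19.3% and 14.3% to 24.5% of all genes. The median of the members kept its sign, from -0.78 to -1.71 in macrophages and -0.05 to -0.32 in HSCs. Log2 fold changes that crossed 0 ranged from -0.034 to 0.17 for Ctsa, -0.27 to 0.98 for Ctss, -0.24 to 0.30 for Ctsz and -0.48 to 0.054 for Ctsf in HSCs, from -0.0074 to 0.19 for Lamp2 in macrophages, and from -0.22 to 0.42 for Ctsl in the interaction. Macrophage depth limits the rest: 3 reads equal up to 1.08 CPM in Cre positive libraries.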
